A study of Mus musculus with 6 samples.

Results

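C-type lectin receptors are surface proteins of myeloid cells that carry a C-type lectin-like domain and bind sugars, lipids or self ligands. The 10 receptors described here were chosen by name as the members of this family best known on macrophages: Clec7a, Clec4e, Clec4d, Clec4n, Clec5a, Clec10a, Clec12a, Mrc1, Clec4a1 and Clec4a3. All 10 were among the 15469 protein-coding genes of the deposited table, and all 10 had enough reads for testing, with 11424 genes tested in all. The table assigns a Pfam lectin C-type domain to each of the 10. The name of the group therefore rests on the domain annotation. That annotation does not set these 10 apart, since 46 other C-type lectin genes were in the table. The members were chosen with earlier results of these data known.

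These receptors read out microbes and damaged cells by several routes. Dectin-1 (Clec7a) signals through an ITAM-like motif in its own tail, Dectin-2 (Clec4n), Mincle (Clec4e) and MCL (Clec4d) through the adaptor FcRγ (Fcer1g), and Clec5a through the adaptor DAP12 (Tyrobp). These routes lead to the kinase Syk and, for several of the receptors, onward to Card9 and NF-κB. Others act differently: the mannose receptor (Mrc1) and MGL1 (Clec10a) take up sugar-bearing ligands, and MICL (Clec12a) carries an inhibitory motif.

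The 6 RNA libraries came from macrophages of the mouse peritoneum, the lining of the abdomen, recovered by lavage from animals of the CAIA model, which the labels give only as an abbreviation. All the cells were sorted for surface RELM-α, a resistin-like protein associated with alternative activation, and then plated in macrophage medium. The 3 libraries labelled KO are described as PU.1-deleted and the 3 labelled WT as control. PU.1, the product of Spi1, is an ETS transcription factor that is required for macrophages to develop. How the gene was deleted, any Cre driver, and the strain, age and sex of the mice are not given in the labels. Nor is it stated whether libraries of a group are independent animals or wells, and the spread behind each p-value may therefore be technical.

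The depth was 17280855 to 18632623 counts per library. The Spi1 transcript was not called lower in the libraries labelled KO (log2 difference -0.10, adjusted p = 0.561, edgeR quasi-likelihood test). Its level was 276.9, 285.5 and 319.7 CPM (counts scaled to library size) against 323.4, 340.2 and 283.7 CPM in WT, and the groups overlapped. The transcript thus does not show the deletion named in the labels, and every direction given here is between libraries by label. The Y-linked genes Ddx3y, Eif2s3y, Uty and Kdm5d had 0 to 4 counts in each library labelled KO and 346 to 1296 counts in each WT library, so that the label and the sex of the source cannot be told apart. KO replicate 1 stood apart from the other libraries of its group. Its Pearson correlation across tested genes was 0.902 and 0.922 with KO replicates 2 and 3, and 0.955 to 0.959 with the 3 WT libraries, while KO replicates 2 and 3 correlated at 0.99. Results are therefore given with and without KO replicate 1. Summed over 9 macrophage markers, all tested, TPM (length-scaled transcript levels) were 35179 for KO replicate 1, 77995 to 80032 for the other libraries labelled KO and 63235 to 66332 for WT. Lyz2 made up 90.8% of this sum and carried the gap. Without it the sums were 6358 to 6817 TPM in the libraries labelled KO, with KO replicate 1 the lowest, and 5143 to 5411 TPM in WT. The part of these differences in the results was not tested. In bulk RNA, fewer cells of a type and less RNA per cell cannot be told apart.

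In outline, Clec7a was the 1 receptor of the 10 that passed the test over all 6 libraries, and it was 3.52-fold lower in the libraries labelled KO. Clec4e and Clec10a were higher in every library labelled KO than in any WT library, most of all in KO replicate 1, and did not pass that test. Clec4n, Clec4d and Clec5a split the libraries labelled KO, with KO replicate 1 within or above the WT range and KO replicates 2 and 3 below it. Clec12a was near the WT level in KO replicate 1 and above it in KO replicates 2 and 3. Mrc1 and Clec4a3 had lower mean levels and Clec4a1 a nearly equal one in the libraries labelled KO, and none of the 3 passed the test over all 6 libraries.

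Of the 10 genes, 8 lie on chromosome 6. In the coordinates of GRCm38, Clec4a1 (6:122921848-122934619, + strand), Clec4a3 (6:122952515-122969878, +), Clec4n (6:123229843-123247024, +), Clec4d (6:123262107-123275268, +) and Clec4e (6:123281789-123289871, −) follow each other. Clec12a (6:129349783-129365303, +) and Clec7a (6:129461591-129472785, −) lie further along, and Clec5a (6:40574898-40585805, −) stands on its own. Clec10a is on chromosome 11 (11:70166623-70170836, +) and Mrc1 on chromosome 2 (2:14229414-14332023, +). No other gene of the table overlapped any of the 9 members placed on a chromosome there. The table places Clec10a on a scaffold, and its position is taken from RefSeq. Clec4a1 and Clec4a3 are related genes, and reads shared between relatives may have been split, since the counting is not described.

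The sequence just before the transcription start is shown for 2 pairs of genes from the same clusters, Clec7a with Clec12a and Clec4d with Clec4e. The ratio of each pair's TPM did not overlap between the groups, and neither did that of Clec4a1 to Clec4a3, which are not shown. The share of other gene pairs without overlap was not computed. The sequences shown were picked with their values known. Each is the 250 bases upstream of the RefSeq start in GRCm38.p6, read 5′ to 3′ on the strand of the gene, and capitals mark the PU box GAGGAA, the core sequence associated with PU.1 binding, or its reverse complement TTCCTC.
Clec7a, chr6:129472786-129473035, − strand: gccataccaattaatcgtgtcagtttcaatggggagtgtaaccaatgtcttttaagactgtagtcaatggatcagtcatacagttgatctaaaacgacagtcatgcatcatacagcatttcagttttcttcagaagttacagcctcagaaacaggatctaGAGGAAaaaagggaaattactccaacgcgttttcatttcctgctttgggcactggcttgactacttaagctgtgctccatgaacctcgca
Clec12a, chr6:129349994-129350243, + strand: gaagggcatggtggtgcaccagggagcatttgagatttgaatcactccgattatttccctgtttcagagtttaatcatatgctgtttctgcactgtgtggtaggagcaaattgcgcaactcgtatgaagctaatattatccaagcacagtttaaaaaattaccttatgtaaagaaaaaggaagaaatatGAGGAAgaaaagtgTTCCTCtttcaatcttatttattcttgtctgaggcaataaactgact
Clec4d, chr6:123261857-123262106, + strand: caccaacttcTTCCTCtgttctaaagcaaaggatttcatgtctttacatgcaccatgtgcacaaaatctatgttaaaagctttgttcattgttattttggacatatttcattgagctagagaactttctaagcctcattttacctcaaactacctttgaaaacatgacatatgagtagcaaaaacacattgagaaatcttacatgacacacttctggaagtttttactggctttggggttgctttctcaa
Clec4e, chr6:123289872-123290121, − strand: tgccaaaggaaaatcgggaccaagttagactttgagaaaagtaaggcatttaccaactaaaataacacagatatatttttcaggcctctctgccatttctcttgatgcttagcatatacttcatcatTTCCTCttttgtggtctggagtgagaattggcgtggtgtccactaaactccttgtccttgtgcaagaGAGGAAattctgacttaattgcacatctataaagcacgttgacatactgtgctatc

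The Clec7a sequence holds 1 match, which starts 90 bases before the transcription start. Clec12a holds 2 matches, at 61 and 47 bases, on opposite strands. The single Clec4d match lies at 240 bases, and the 2 Clec4e matches at 123 and 56 bases. Of the 8 members with an entry in the RefSeq promoter table, 7 held GAGGAA on either strand, the exception being Clec4a3, against 23.3% of 32851 promoters of the same length. The 32851 cover all entries, not only those of genes with reads here, and were not matched to the members in base composition. Whether other genes of these cells hold the motif as often was not tested. The AP-1 motif TGACTCA, searched on both strands, was in 0 of the 8, against 4.46% of all promoters. With 0 AP-1 matches, none overlapped a PU box. PU box matches occurred in genes at a lower (Clec7a), a higher (Clec4e) and a near-equal level (Clec4a1) in the libraries labelled KO, and a match describes the letters only. The RefSeq start used for Clec12a lies inside the range that the table gives for the gene.

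In WT, transcript levels of the 10 receptors covered a wide range, and Clec4d led with 1487 ± 129 TPM (SD, n = 3), rank 77 of all 15469 genes deposited. Clec7a followed at 733.5 ± 166.9 TPM and Clec4n at 410.8 ± 195.5 TPM, and the ranges of these 2 overlapped. Clec12a came next at 186.6 ± 14.7 TPM. Clec4a1 at 73.5 ± 5.73 TPM and Mrc1 at 72.3 ± 18.7 TPM did not differ beyond their spread. Below them lay Clec4a3 at 41.9 ± 6.78 TPM and Clec5a at 17.3 ± 1.10 TPM. Clec4e at 6.72 ± 0.452 TPM and Clec10a at 3.97 ± 0.919 TPM, rank 8888, were the lowest, and from Mrc1 downward no neighbours in the WT order overlapped. In the libraries labelled KO, 7 of the 9 neighbouring pairs in the order of mean TPM overlapped. The pairs that did not were Clec7a above Clec4a1 and Clec4a1 above Mrc1.

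**Figure D1:**
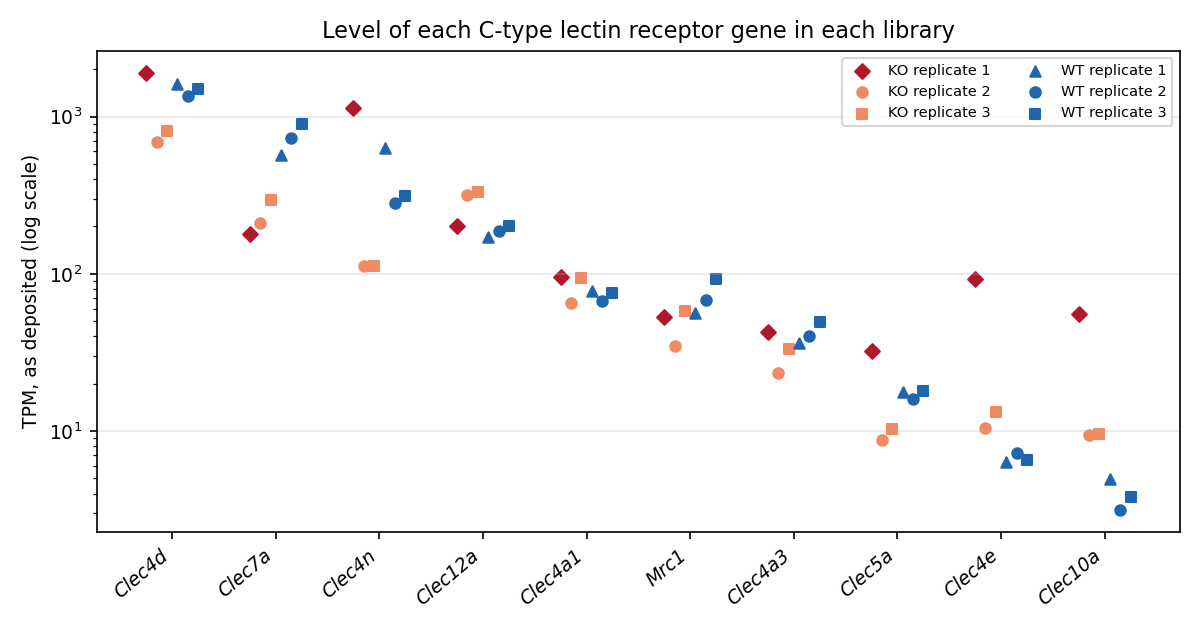
Transcript level in TPM (log axis) of the 10 C-type lectin receptors, 1 point per library, with the 3 libraries labelled KO and the 3 labelled WT. Clec4d is the highest in all 6 libraries and Clec10a and Clec4e are the lowest in WT, and the points of KO replicate 1 lie apart from KO replicates 2 and 3 for Clec4e, Clec4n, Clec5a and Clec10a.

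In the plot of levels by library Clec4d kept the top place throughout, while the receptors under it changed places. Summed over the 10 receptors, the level was 3796, 1484 and 1772 TPM in KO replicates 1 to 3 and 3178, 2753 and 3169 TPM in WT. KO replicate 1 was the highest of the 6 and KO replicates 2 and 3 the lowest. Clec4d made up 45.9% to 50.5% of this sum in every library. Clec7a made up 4.72%, 14.1% and 16.7% in the libraries labelled KO and 17.8%, 26.7% and 28.4% in WT, so that its share was lower in each library labelled KO than in any WT library. Clec4n ranged from 6.34% in KO replicate 3 to 30.1% in KO replicate 1. These shares are descriptions, and no test was made of them.

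Clec7a encodes Dectin-1, the receptor for fungal β-glucan. Its level was 179.2, 209.5 and 296.1 TPM in the libraries labelled KO and 566.4, 733.9 and 900.3 TPM in WT. Every library labelled KO lay below every WT library, and the highest of them stood well under the lowest WT value. In CPM the means were 262.2 ± 77.4 (SD, n = 3) and 922.1 ± 169 (n = 3). Clec7a fell by 1.81 on the log2 scale (SE 0.257, 95% interval -2.45 to -1.18, edgeR adjusted p = 0.0317). It was the only called member of the 10, in a comparison where 1.06% of the 11424 tested genes were called lower and 2.26% higher. Without KO replicate 1 it fell by 1.62 (adjusted p = 0.00101). The call was lost when any of the other 5 libraries was left out, with adjusted p from 0.0705 to 0.182 and log2 differences from -2.10 to -1.69. After correcting for transcript GC content and length, the log2 difference was -1.19 over all 6 libraries (adjusted p = 0.132) and -0.83 without KO replicate 1 (adjusted p = 0.00233).

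**Figure D2:**
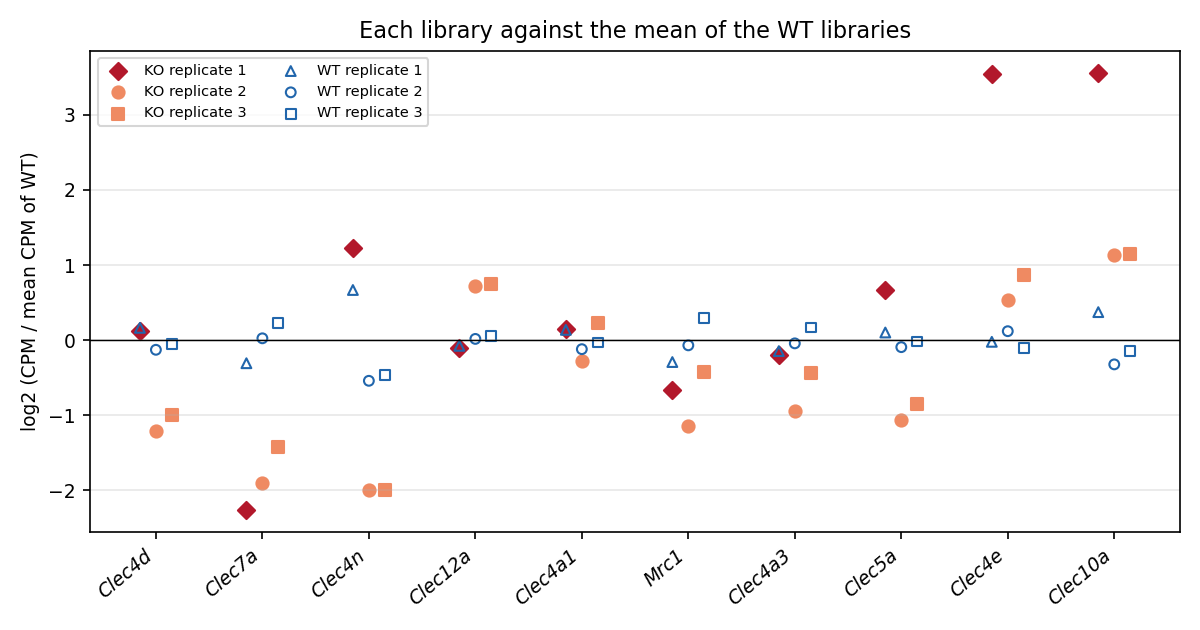
Level of each receptor in each library relative to its WT mean, as a log2 ratio of CPM, 1 point per library. Clec7a lies below 0 in all 3 libraries labelled KO, Clec4e and Clec10a above 0 in all 3, and for Clec4n, Clec5a and Clec4d KO replicate 1 lies on the other side of the WT mean from KO replicates 2 and 3. Clec12a splits the opposite way, with KO replicate 1 slightly below the WT mean and KO replicates 2 and 3 above it.

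Clec4e encodes Mincle, a receptor for mycobacterial cord factor and for a ligand released from dying cells, which is itself induced by inflammatory stimuli. Its level was 92.1 TPM in KO replicate 1, 10.4 and 13.2 TPM in KO replicates 2 and 3, and 6.36, 7.23 and 6.58 TPM in WT. All 3 libraries labelled KO exceeded all WT libraries, and KO replicate 1 exceeded the mean of KO replicates 2 and 3 by 7.14-fold in CPM. Over all 6 libraries Clec4e was 4.97-fold higher in CPM, or 2.31 on the log2 scale (SE 0.870, 95% interval 0.16 to 4.46), and did not pass the test (edgeR adjusted p = 0.195). DESeq2 called it (adjusted p = 0.0229), as it did 2 receptors higher and 1 lower of 9 with an adjusted p, against 7.12% and 3.69% of genes or 10.8% in all. Without KO replicate 1 it was called higher at a log2 difference of 0.72 (adjusted p = 0.00406), where 23.6% of 11677 tested genes were called higher and 26.0% lower. The GC and length correction raised this to 1.51 (adjusted p = 6.8e-05), and gave 2.52 over all 6 libraries (adjusted p = 0.0812).

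Clec4d encodes MCL, which forms complexes with Mincle and also binds cord factor. Its level was 1905 TPM in KO replicate 1, 691.5 and 812.6 TPM in KO replicates 2 and 3, and 1605, 1349 and 1507 TPM in WT. In TPM, KO replicate 1 was the highest of the 6 libraries and KO replicates 2 and 3 were the lowest. In CPM, where WT replicate 1 (1206.0) lay above KO replicate 1 (1171.5), the groups overlapped too. The log2 difference over all 6 libraries was -0.57 (SE 0.369, edgeR adjusted p = 0.387), and it was -1.08 without KO replicate 1, where the gene was called lower (adjusted p = 0.000236). With the GC and length correction these values became 0.07 (adjusted p = 0.733) and 0.04 (adjusted p = 0.761), and the direction turned. The transcript of Clec4d had the lowest GC content of the 10, 40.4%.

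Clec4n encodes Dectin-2, a receptor for fungal mannan. Its level was 1141 TPM in KO replicate 1, 111.7 and 112.2 TPM in KO replicates 2 and 3, and 635.9, 282.2 and 314.4 TPM in WT. The libraries labelled KO held both the highest and the lowest values, 9.31-fold apart in CPM between KO replicate 1 and the mean of the others, and WT replicate 1 was also above its group. The group means were nearly equal in CPM, 249.5 ± 317.5 against 263.7 ± 134.7 (n = 3 each), and the log2 difference was -0.08 (SE 0.978, 95% interval -2.50 to 2.34, edgeR adjusted p = 0.964). It was called lower without KO replicate 1, at -1.98 (adjusted p = 0.00786), and at -1.66 with the GC and length correction (adjusted p = 0.00986).

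Clec5a encodes a DAP12-coupled receptor best known for its binding of dengue virus. Its level was 32.2 TPM in KO replicate 1, 8.83 and 10.4 TPM in KO replicates 2 and 3, and 17.8, 16.0 and 18.0 TPM in WT. KO replicate 1 was above and KO replicates 2 and 3 below all WT libraries, which lay close together. The log2 difference was -0.19 (SE 0.479, edgeR adjusted p = 0.815) over all 6 libraries and -0.94 without KO replicate 1, where it was called lower (adjusted p = 0.000463). The GC and length correction gave 0.06 (adjusted p = 0.914) and -0.41 (adjusted p = 0.00655) for the same 2 sets of libraries.

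Clec10a encodes MGL1, an endocytic receptor for galactose and N-acetylgalactosamine. Its level was 55.4 TPM in KO replicate 1, 9.39 and 9.59 TPM in KO replicates 2 and 3, and 4.97, 3.16 and 3.79 TPM in WT. Every library labelled KO was above every WT library. The mean was 5.41-fold higher in CPM, 18.0 ± 18.4 against 3.32 ± 0.868 (n = 3 each), and the log2 difference was 2.43 (SE 0.779, 95% interval 0.51 to 4.36, edgeR adjusted p = 0.144). As for Clec4e, DESeq2 called it (adjusted p = 0.00770), and so did edgeR without KO replicate 1, at a log2 difference of 1.15 (adjusted p = 0.0031), or 0.90 with the GC and length correction (adjusted p = 0.00636). The authors' deposited table gives a q-value under 0.05 to 3 of the 10 receptors: Clec7a (log2 -1.82, q = 3.72e-08), Clec4e (2.29, q = 0.0283) and Clec10a (2.42, q = 0.00955).

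Mrc1 encodes the mannose receptor, a marker of alternatively activated macrophages. Its level was 53.3, 34.8 and 57.9 TPM in the libraries labelled KO and 56.3, 67.7 and 92.9 TPM in WT. On the CPM scale, at 153.1, 110.0 and 180.7 against 197.9, 230.9 and 297.4, the groups did not overlap, and on the TPM scale they did. The log2 difference in CPM was -0.71 (SE 0.234, 95% interval -1.29 to -0.13, edgeR adjusted p = 0.152). It was not called without KO replicate 1 either, at -0.72 (adjusted p = 0.0562), and was -0.12 there with the GC and length correction (adjusted p = 0.516).

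Clec12a encodes MICL, an inhibitory receptor for uric acid crystals. Its level was 200.0 TPM in KO replicate 1, 318.8 and 332.5 TPM in KO replicates 2 and 3, and 171.7, 186.8 and 201.2 TPM in WT. KO replicate 1 lay within the WT range of TPM, and KO replicates 2 and 3 lay above it. In CPM, KO replicate 1 (146.6) lay under all WT libraries (149.7 to 163.7). The log2 difference was 0.50 (SE 0.235, 95% interval -0.08 to 1.08, edgeR adjusted p = 0.266). Without KO replicate 1 it was called higher, at 0.75 (adjusted p = 0.000191), and at 1.43 with the GC and length correction (adjusted p = 6.6e-06).

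Clec4a1 and Clec4a3 are mouse relatives of the dendritic cell immunoreceptor. Clec4a3 had 42.7, 23.3 and 33.4 TPM in the libraries labelled KO and 36.3, 40.1 and 49.4 TPM in WT, which overlap in TPM and not in CPM. Its log2 difference was -0.49 (SE 0.208, edgeR adjusted p = 0.228), and -0.65 without KO replicate 1, where it was called lower (adjusted p = 0.0126). There the GC and length correction turned the direction to 0.36 (adjusted p = 0.0171). Clec4a1 had 95.5, 65.3 and 93.6 TPM against 77.8, 67.0 and 75.7 TPM, and the groups overlapped. Its log2 difference was 0.05 (SE 0.156, edgeR adjusted p = 0.857), and 0.01 without KO replicate 1 (adjusted p = 0.946). The GC and length correction gave 0.32 (adjusted p = 0.248) and 0.42 (adjusted p = 0.0370) for the same sets, the latter called higher.

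**Figure D3:**
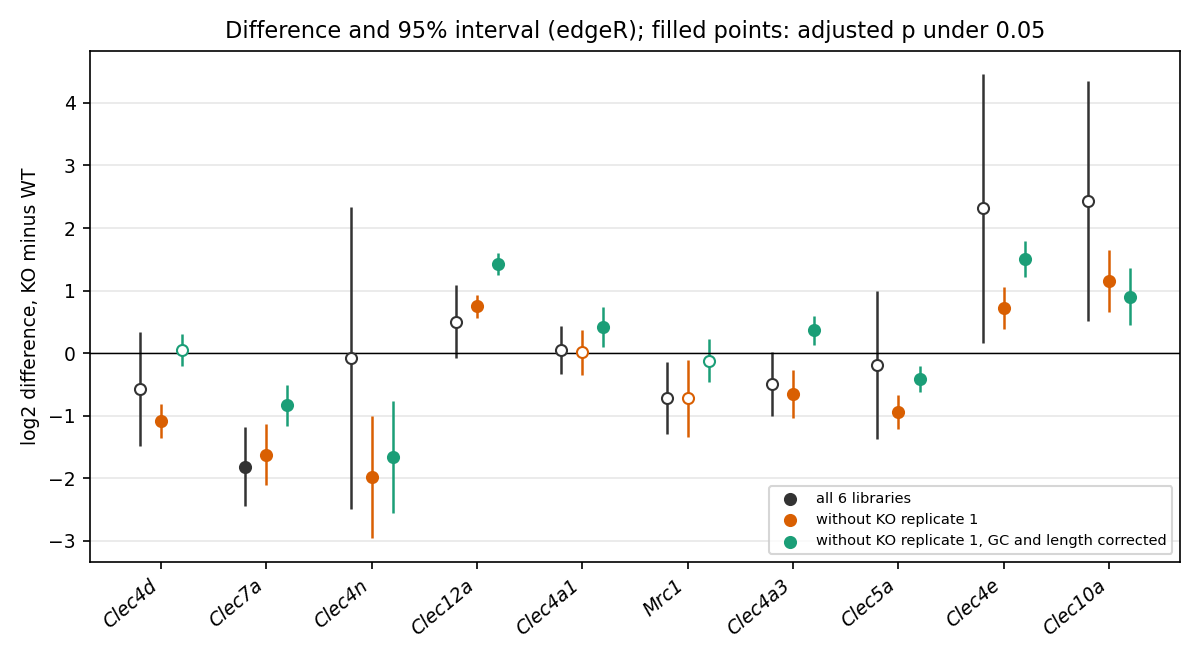
Log2 difference in CPM, KO minus WT, of the 10 receptors with its 95% interval from edgeR. Colours mark the fit over all 6 libraries, without KO replicate 1, and without KO replicate 1 with the GC and length correction, and filled points have an adjusted p under 0.05. Over all 6 libraries only Clec7a is filled, and the intervals of Clec4e, Clec4n and Clec10a are the widest.

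As the plot of differences shows, the number of called receptors depended on KO replicate 1. With it, edgeR called 1 of 10, against 3.32% of all genes tested, limma-voom also called Clec7a alone, against 2.93%, and 4 had an unadjusted p under 0.05 (Clec7a, Clec4e, Clec10a and Mrc1), against 22.7% of all genes. Without it, 3 were called higher (Clec4e, Clec10a and Clec12a) and 5 lower (Clec7a, Clec4d, Clec4n, Clec5a and Clec4a3), while 49.6% of all tested genes were called. In 5 of the 10 receptors (Clec4e, Clec4d, Clec4n, Clec5a and Clec10a) KO replicate 1 was more than 2-fold from the mean of KO replicates 2 and 3, as in 19.6% of all genes tested (0.5 CPM added). The CPM of the groups did not overlap in 5 receptors, 2 higher (Clec4e and Clec10a) and 3 lower (Clec7a, Mrc1 and Clec4a3), against 31.0% of all genes, 18.4% higher and 12.6% lower. The median log2 difference of the 10 was -0.14, beside -0.01 for all genes tested.

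The transcripts of the 10 receptors were poor in GC, a property that their choice did not use. Their GC content ran from 40.4% in Clec4d to 52.1% in Clec10a with a median of 43.2%, and 9 of the 10 lay under the median of tested genes, 50.8%. Among the 6373 tested genes with a GC content no higher than that of Clec10a, 37.5% were called lower and 19.2% higher without KO replicate 1. That limit lies above the median of tested genes, so this set is not matched to the GC content of most of the 10. With the GC and length correction and without KO replicate 1, 5 receptors were called higher (Clec4e, Clec10a, Clec12a, Clec4a1 and Clec4a3) and 3 lower (Clec7a, Clec4n and Clec5a), when 19.0% of all genes were called higher and 32.7% lower, 51.7% in all. Over all 6 libraries the correction left 0 of the 10 called, by the same edgeR test, against 4.23% of genes. The directions of Clec7a, Clec4n, Clec5a, Clec4e, Clec10a, Clec12a, Mrc1 and Clec4a1 were the same under both fits without KO replicate 1. Those of Clec4d and Clec4a3 turned. Whether the GC relation comes from the libraries or the cells was not tested.

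Members that follow each other in a chromosome 6 cluster, with or without other genes between them, were set against each other within each library, which removes the scaling of the library. There were 5 such pairs. The ratio of Clec12a to Clec7a in TPM was 1.12, 1.52 and 1.12 in the libraries labelled KO and 0.303, 0.255 and 0.224 in WT. Clec12a was thus above Clec7a in every library labelled KO and below it in every WT library. The ratio of Clec4d to Clec4e was 20.7, 66.5 and 61.4 against 252.3, 186.5 and 229.0. That of Clec4a1 to Clec4a3 was 2.24, 2.80 and 2.80 against 2.15, 1.67 and 1.53. These 3 ratios did not overlap between the groups, with log2 differences of 2.26, -2.33 and 0.56. Each gave a 2-sided exact permutation p of 0.1, and 0.167 when adjusted over the 5 pairs. The pairs were chosen after the values were seen, and Clec7a and Clec4e did not overlap between the groups on their own. Among single genes 31.0% did not overlap in CPM, and the share among other gene pairs was not computed. The ratios of Clec4a3 to Clec4n (log2 difference 0.29, exact permutation p = 0.8) and Clec4n to Clec4d (-0.12, exact permutation p = 0.9) overlapped, with KO replicate 1 at one end and KO replicates 2 and 3 at the other. Since 0.1 is the smallest p that 3 libraries against 3 allow, the design cannot reach 0.05.

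The adaptors and kinase that the activating receptors share were close to equal between the groups. Syk was at 591.1 ± 14.9 CPM in the libraries labelled KO and 635.2 ± 30.6 CPM in WT, a log2 difference of -0.10 (SE 0.080, edgeR adjusted p = 0.450). For Fcer1g the log2 difference was -0.01 (SE 0.101, adjusted p = 0.964), for Tyrobp -0.08 (SE 0.170, adjusted p = 0.771) and for Card9 -0.06 (SE 0.116, adjusted p = 0.769). A difference that missed the threshold does not show that levels were equal: without KO replicate 1 and with the GC and length correction, Syk was called lower at -0.39 (adjusted p = 0.00168) and Card9 at -0.32 (adjusted p = 0.0218). Of 31 signalling genes of these receptors, all tested, 2 rose and none fell over all 6 libraries, with a median log2 difference of 0.11 beside -0.01 for all genes, of which 2.26% were called higher and 1.06% lower. The 2 were Nfatc2, a calcium-dependent transcription factor, at 48.2 ± 1.62 against 26.0 ± 1.86 CPM (1.85-fold, log2 0.89, adjusted p = 0.0189), and Plcg2, the phospholipase downstream of Syk, at 200.8 ± 10.7 against 131.7 ± 4.25 CPM (1.53-fold, log2 0.61, adjusted p = 0.0245). Neither group overlapped the other for these genes, and KO replicate 1 lay with its group in both. Nfatc2 and Plcg2 lost the call when any 1 library other than KO replicate 1 was left out, with adjusted p of 0.0822 to 0.158 and 0.104 to 0.224. The GC and length correction gave Plcg2 a log2 difference of 0.37 (adjusted p = 0.108). Of the 31, 14 were called higher and 4 lower without KO replicate 1, against 23.6% and 26.0% of all genes. One of the 4, Malt1, the protease of the Card9 complex, was at 45.9, 22.4 and 26.7 CPM against 53.2, 71.6 and 93.1 CPM and is named after its values were seen.

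**Figure D4:**
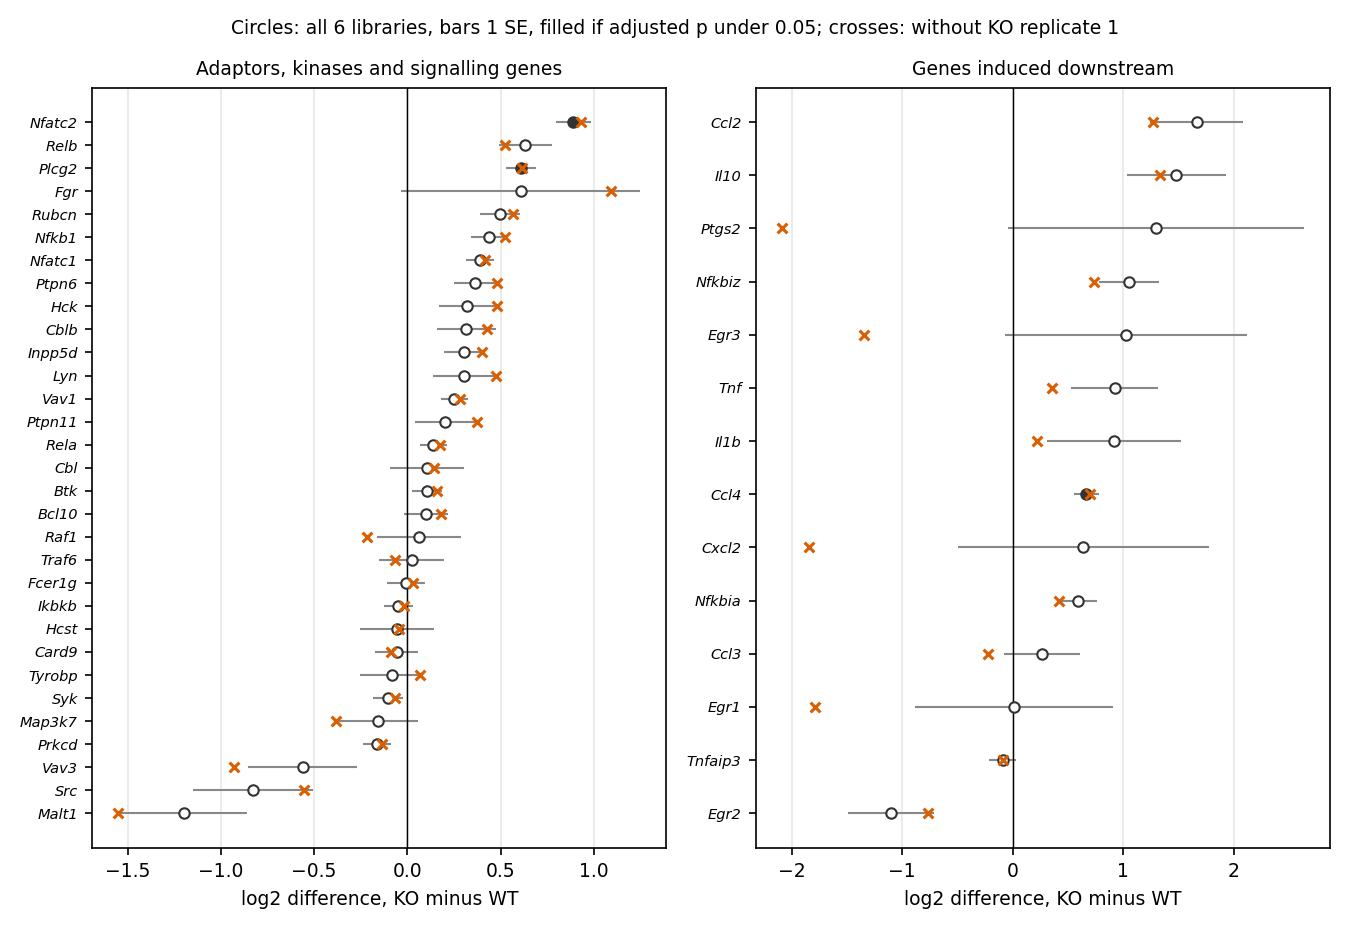
Log2 difference in CPM, KO minus WT (edgeR), of the tested signalling genes (left) and response genes (right) of C-type lectin receptors: circles with bars of 1 SE for all 6 libraries, filled where the adjusted p is under 0.05, and crosses without KO replicate 1. The filled genes are Nfatc2 and Plcg2 on the left and Ccl4 on the right, and Syk, Fcer1g, Tyrobp and Card9 lie near 0.

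As the plot of the signalling genes shows, the shared adaptors sat near 0. Of 14 tested genes that respond to these receptors, 1 rose and none fell: Ccl4, a chemokine for monocytes and T cells, at 50.5, 52.6 and 52.2 CPM against 37.2, 31.7 and 29.1 CPM (1.59-fold, log2 0.67, SE 0.115, edgeR adjusted p = 0.0443). All 3 libraries labelled KO were above all 3 WT libraries. The call was lost when any 1 library other than KO replicate 1 was left out (adjusted p 0.121 to 0.275). Over all 6 libraries 2.26% of all genes tested were called higher and 1.06% lower. The median log2 difference of the 14 was 0.79 over all 6 libraries and 0.06 without KO replicate 1. Of the 14, 5 were called higher and 5 lower without KO replicate 1, against 23.6% and 26.0% of all genes. KO replicate 1 was the highest library for 11 of the 14, as for 20.4% of all genes tested, the others being Ccl4, Egr2 and Tnfaip3. Egr1 and Egr2, immediate early genes, and Tnf are named after their values were seen. Egr1 had 33.7, 3.90 and 3.96 CPM in the libraries labelled KO and 11.1, 12.9 and 17.2 CPM in WT. Egr2 had 22.8, 57.3 and 58.2 CPM against 76.6, 112.8 and 107.8 CPM. In KO replicates 2 and 3 both genes were below all WT libraries. In KO replicate 1 Egr1 was above all of them and Egr2 below. Tnf had 48.2, 19.7 and 18.9 CPM against 14.5, 16.4 and 14.8 CPM.

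Of 46 other C-type lectin genes in the table, 16 had enough reads for testing and 0 were called by edgeR over all 6 libraries, with 7 at an unadjusted p under 0.05, against 22.7% of all genes. Their median log2 difference was -0.03. By DESeq2, which gave an adjusted p to 27, 3 were higher and 2 lower, against 7.12% and 3.69% of genes, and by limma-voom 1 was lower. The smallest p belonged to Cd302, an endocytic lectin, at 51.4 ± 6.44 CPM in the libraries labelled KO and 77.8 ± 0.556 CPM in WT (log2 -0.60, edgeR adjusted p = 0.0501). Leaving out KO replicate 1 gave 9 called higher and 7 lower of 19 tested, against 23.6% and 26.0% of all genes. The 4 tested neighbours within the lectin gene clusters of chromosome 6 include Clec4b1, Clec4a2 and Clec1b, which are already counted among the other lectins. None of the 4 was called by edgeR or limma-voom. DESeq2 gave an adjusted p to 7 neighbours and called 2, against 10.8% of genes. By edgeR 3 of the 4 had an unadjusted p under 0.05, against 22.7% of all genes, and the median log2 difference was -0.09. Clec4b1 had the smallest p there, at 1.60 ± 0.151 against 0.546 ± 0.183 CPM (log2 1.54, edgeR adjusted p = 0.0602, DESeq2 adjusted p = 0.0201).

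Markers of other cells were measured beside these results, since Clec10a, Clec4e and Mrc1 are also found on monocytes or dendritic cells. The summed level of 8 small peritoneal macrophage and monocyte markers, 7 of them tested, was 515.2 TPM in KO replicate 1, 177.4 and 181.9 TPM in KO replicates 2 and 3, and 255.5 to 387.9 TPM in WT. Of the 7 dendritic cell markers none had enough reads for testing, and their sum was 3.47 TPM in KO replicate 1 and 0.15 to 0.23 TPM in the other libraries. Siglech made up 2.1 TPM of the sum in KO replicate 1. Without Siglech the sum was 1.37 TPM there and 0.15 to 0.2 TPM elsewhere. Zbtb46 went the other way, at 0.110 CPM in KO replicate 1 and 0.154 to 0.481 CPM elsewhere. The sums of both marker lists were highest in the library where Clec4e, Clec4n and Clec10a were highest, and the part of those cells in the result was not tested. The monocyte list did not move as one: 5 of its 7 tested genes were highest in KO replicate 1, Itgax was lowest there at 69.1 CPM against 277.3 to 511.4 CPM elsewhere, and the median log2 difference was -0.39. Its called gene, the chemokine receptor Cx3cr1, rose to 53.7, 52.4 and 50.3 CPM in the libraries labelled KO against 1.80, 3.29 and 1.14 CPM in WT (log2 4.64, edgeR adjusted p = 0.0126), evenly across the libraries labelled KO. Named after their values were seen, Mgl2 and Cd209a, from the other C-type lectin genes, had 8.15 and 7.38 CPM in KO replicate 1. Elsewhere they had no more than 0.64 and 0.582 CPM. That list did not move as one. In KO replicate 1 Clec9a, at 0.220 CPM, was below all WT libraries (0.465 to 1.10 CPM). Cd209c, at 0.495 CPM, was within the WT range (0.404 to 0.582 CPM). The monocyte chemokine receptor gene Ccr2, also named after its values were seen, had 64.1 CPM in KO replicate 1 and no more than 2.58 CPM elsewhere.

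The other marker lists also held genes that went different ways. Their calls over all 6 libraries stand beside 2.26% of all tested genes called higher and 1.06% lower. Of 9 macrophage markers 1 was called, Csf1r, the receptor for the growth factor of macrophages, which was higher (log2 0.79, edgeR adjusted p = 0.0208), and the median log2 difference was 0.31. Of 5 tested large peritoneal macrophage markers Icam2 was called higher (log2 1.31, adjusted p = 0.0454) and Cd9 lower (log2 -0.57, adjusted p = 0.0326), with a median of 1.31. The TPM sum of that list, 1069 to 1151 in the libraries labelled KO and 1319 to 1559 in WT, was 98.8% Cd9. Of 5 platelet markers 3 were called lower, among them Itga2b (log2 -3.87, adjusted p = 0.0482) and Gp1bb (0 to 0.0521 CPM against 2.62 to 4.27 CPM, adjusted p = 0.0147). Pf4, 74.0% of the platelet sum, went the other way in KO replicate 1, at 235.2 TPM against 71.3 to 96.2 TPM elsewhere. The calls of Cx3cr1, Csf1r, Icam2, Cd9, Itga2b and Gp1bb were each lost when any 1 library other than KO replicate 1 was left out (adjusted p 0.0574 to 0.254), except that of Cx3cr1 without WT replicate 2. Neutrophil markers, 2 of them tested and none called, summed to 22.8 to 57.8 TPM against 71.8 to 80.7 TPM. The B cell, T and NK cell, eosinophil, mast cell, fibroblast, mesothelial, endothelial and erythroid lists summed to at most 11.9 TPM in any library, with none of their tested genes called.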

How the data were processed

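Bead-captured messenger RNA of the 6 libraries was sequenced on an Illumina NovaSeq, per the labels' protocols. The submitters' processing notes name fastp 0.18.0 and the build GRCm39. For alignment and counting, no tool, strand setting or annotation release is given in the sources used here. The table's coordinates are those of GRCm38: of 14575 genes matched by gene ID to RefSeq GRCm38.p6 on chromosomes, 13089 had the same start. For each gene and library the authors deposited an unnormalized estimated count. In a library 4.82% to 5.49% of them were not whole, and they were rounded for testing. The authors' deposited TPM values serve as levels per transcript length, and their deposited FPKM values were used for no result. DESeq2 is named in the file headers for the deposited log2 fold changes, p-values and q-values.

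Genes with enough counts by filterByExpr (minimum count 10) were scaled by TMM and tested in edgeR 4.0.16 (R 4.3.3) by robust quasi-likelihood, group being the only term, with Benjamini-Hochberg adjustment over all 11424 genes and calls at an adjusted p under 0.05. CPM are on TMM-scaled library sizes, SDs are over 3 libraries. A fit without KO replicate 1 leaves 2 libraries labelled KO. Alternatives were DESeq2 1.42.0, limma-voom and limma 3.58.1 on log2(TPM + 1) and log2(TPM + 0.1), RLE and upper-quartile factors, other filters, an adjusted p under 0.01, the replicate block and each library left out. The correction for GC content and transcript length (median over GENCODE transcripts; smooth terms per library, mgcv 1.9.3), alone and without KO replicate 1, was chosen after seeing the data. The fit was also run on simulated counts, drawn with neither an outlying library nor a relation to GC content. That run therefore says nothing about the effect of KO replicate 1 or of GC content on the calls. Ratios of neighbouring members were chosen after seeing the data and tested as log2 TPM ratios with a 2-sided exact permutation test over the 20 assignments.

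Members and lists were chosen with earlier results of these data known. Every member is named. From each of the 4 other gene lists up to 3 called genes that changed most, at a mean of 1 CPM or more, are named or, with none called, the one with the smallest p, and from the marker lists the called genes by the same limits, besides Syk, Card9, Fcer1g, Tyrobp and Spi1. Retnla, the gene of RELM-α, was not analysed here.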

Additional observations from a re-analysis of the deposited data

How the results depend on the processing

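Each group had 3 libraries, KO replicate 1 lay apart from KO replicates 2 and 3, and each member had reads in every library. Reads are not unique molecules. Leaving out 1 library at a time moved the called members between 0 and 3 higher and between 0 and 5 lower, all genes between 3 and 2761 higher and between 2 and 3032 lower, and the called other lectins between 0 and 16, signalling genes between 0 and 18, response genes between 0 and 10 and cluster neighbours between 0 and 5. The highest counts came without KO replicate 1. Beside the 258 genes higher and 121 lower, DESeq2 called 885 and 459, limma called 902 genes higher on log2(TPM + 0.1) and 779 on log2(TPM + 1), and a filter at 10 CPM left 165 and 64. An adjusted p under 0.01 left 8 and 7 genes, with 0 members lower, 0 signalling and 0 response genes. DESeq2 called 2 members higher, 5 other lectins, 7 signalling genes, 4 response genes and 2 cluster neighbours. Limma on the TPM values, which changes the scale and the test together and shifted the median of all tested genes by 0.12 to 0.14 (log2), gave 3 other lectins and 1 cluster neighbour with either pseudocount, and 9 signalling genes with 0.1 added or 8 with 1 added. Upper-quartile factors gave 1 other lectin and 0 response genes, limma-voom 1 other lectin, and no filter 0 response genes.

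The GC and length correction over all 6 libraries called 0 members lower, 233 genes lower, 3 other lectins, 1 signalling gene, 2 response genes and 1 cluster neighbour. Without KO replicate 1 it called 5 members higher and 3 lower, 2130 genes higher and 3656 lower, 11 other lectins, 16 signalling genes, 9 response genes and 4 cluster neighbours, and shifted the median of all genes by -0.11. Directions turned for Clec4d with the correction (0.0666) and with it but without KO replicate 1 (0.0442), for Clec4a3 likewise (0.19 and 0.36), and with the correction for Clec4n (0.0217) and Clec5a (0.0632). Leaving out KO replicate 2, KO replicate 3 or WT replicate 1 turned Clec4n (0.34, 0.34 and 0.40, with a range of -1.98 to 0.40 over all single libraries), leaving out KO replicate 2 or 3 turned Clec5a (0.0772 and 0.0183, range -0.94 to 0.0772), and leaving out KO replicate 3 or WT replicate 2 turned Clec4a1 (-0.0833 and -0.0309, range -0.0833 to 0.16). The cause was not tested.

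The labels state no pairing of the libraries. The correlation of deviations from the group means between same-numbered libraries was -0.162, 0.246 and -0.271. Deviations from a mean of 3 libraries depend on each other and KO replicate 1 lay apart, so these values cannot decide whether libraries were paired. With the replicate block, edgeR called 0 genes higher and 0 lower of 11424, and so 0 members, 0 signalling genes and 0 response genes, with an adjusted p of 0.0916 for Clec7a.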
